A study of Homo sapiens with 6 samples.

Results

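Heparan sulfate is the chain that heparanase, the product of HPSE, cuts. The set described here holds the genes that build this chain, sulfate it and carry it, 41 genes picked by their known function. Of the 41 genes, 30 had a row of their own among the 59192 features of the table, found by Ensembl identifier, and 25 had a mean of at least 10 normalized counts over the 6 libraries and could be tested among 21703 features.

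A heparan sulfate chain is begun on a serine of a core protein by a short linker of xylose, galactose and glucuronic acid. Exostosins then add alternating glucuronic acid and N-acetylglucosamine, and sulfotransferases and an epimerase modify the chain with sulfate taken from the donor PAPS. In epithelial cells the main carriers are the transmembrane syndecans, the lipid-anchored glypicans and the basement membrane protein perlecan, and the finished chains bind growth factors and matrix proteins.

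The libraries came from SW480, an established line from a human colorectal adenocarcinoma. The 3 control libraries, SW480-NC, came from cells with a stably expressed Cas9 and a control guide. The 3 HPSE-knockdown libraries, which the labels call SW480-45, came from cells with the same Cas9 and a guide against HPSE, so both groups carry Cas9, puromycin selection and an EGFP guide vector. By the study's methods, each group was made of 3 independent experiments. The knockdown line sequenced, SW480-KD1 in the paper, carries 1 guide and is not said to be a clone, so an effect of this guide and an effect of HPSE cannot be told apart.

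HPSE had 136, 172 and 146 normalized counts in the HPSE-knockdown libraries and 270, 295 and 246 in the control libraries. All 3 knockdown libraries were lower, and their mean was 56.1% of that of the control libraries. These values are RNA. The paper judged the knockdown by western blot, a measure of protein, and describes it as efficient. On the log2 scale the difference was −0.83 (standard error, SE, of 0.14; limma adjusted p = 0.0547), and the exact permutation test gave p = 0.1, the smallest value that 3 libraries against 3 allow. The libraries held between 33221323 and 39802365 reads. Of 7 epithelial marker genes, 5 had a row, and their summed level was 106664 to 115221 normalized counts in the knockdown and 121025 to 127970 in the control libraries, most of it KRT8. VIL1, one of the 5, went against the sum, with 8921, 9508 and 8854 normalized counts in the knockdown and 7576, 7606 and 8524 in the control libraries (limma log2 fold change 0.20, adjusted p = 0.225). The summed level of 4 fibroblast markers with a row was 280 to 387 in the knockdown and 229 to 264 in the control libraries, that of 3 immune markers 48.0 to 66.4 and 49.3 to 65.9, and that of 3 endothelial markers 28.0 to 43.2 and 12.6 to 26.5. Most of the fibroblast sum was COL1A1, with means of 309 in the knockdown and 218 in the control libraries. No immune or endothelial marker reached a mean of 50. All libraries came from cultures of 1 cell line, so these sums are not measures of the share of cell types. Their part in the results was not tested. In bulk RNA a change in how many cells express a gene and a change in RNA per cell cannot be told apart.

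Of the 25 heparan sulfate genes tested, 2 passed an adjusted p of 0.05. PAPSS2, a synthase of the sulfate donor, rose, and GPC4, the glypican with the highest level, fell. Both changes were small, 1.29-fold up and to 76.5% of the control mean. Among all 21703 features tested, 0.802% passed the same threshold, 0.332% as higher and 0.47% as lower, and it was 1.3% of the 10145 features with means of 300 normalized counts or more, a level that 24 of the 25 genes reached. At an unadjusted p under 0.05 the set had 5 genes, PAPSS2 and GPC3 higher and GPC4, UGDH and FAM20B lower. That is 20% of the 25 genes, against 16.2% of all features (8.1% higher and 8.15% lower) and 21.1% of the features at 300 or more, so the share is close to the background. Without knockdown library 2 the count was 8 of 25, against 11.8% of all features in that fit. The share of the set was thus above that of all features there. The share among features at 300 or more was not computed for that fit, so a background of like level is not known. Without each of the other libraries the count was 4 or 5. Over all 6 such fits the share of all features was 11.8% to 17.1%. The 3 libraries of one group lay apart from the 3 of the other in 8 of the 25 genes, 4 in each direction, or 32%, against 23.4% of all features (11.4% higher and 12% lower) and 28.4% of those at 300 or more.

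**Figure D1:**
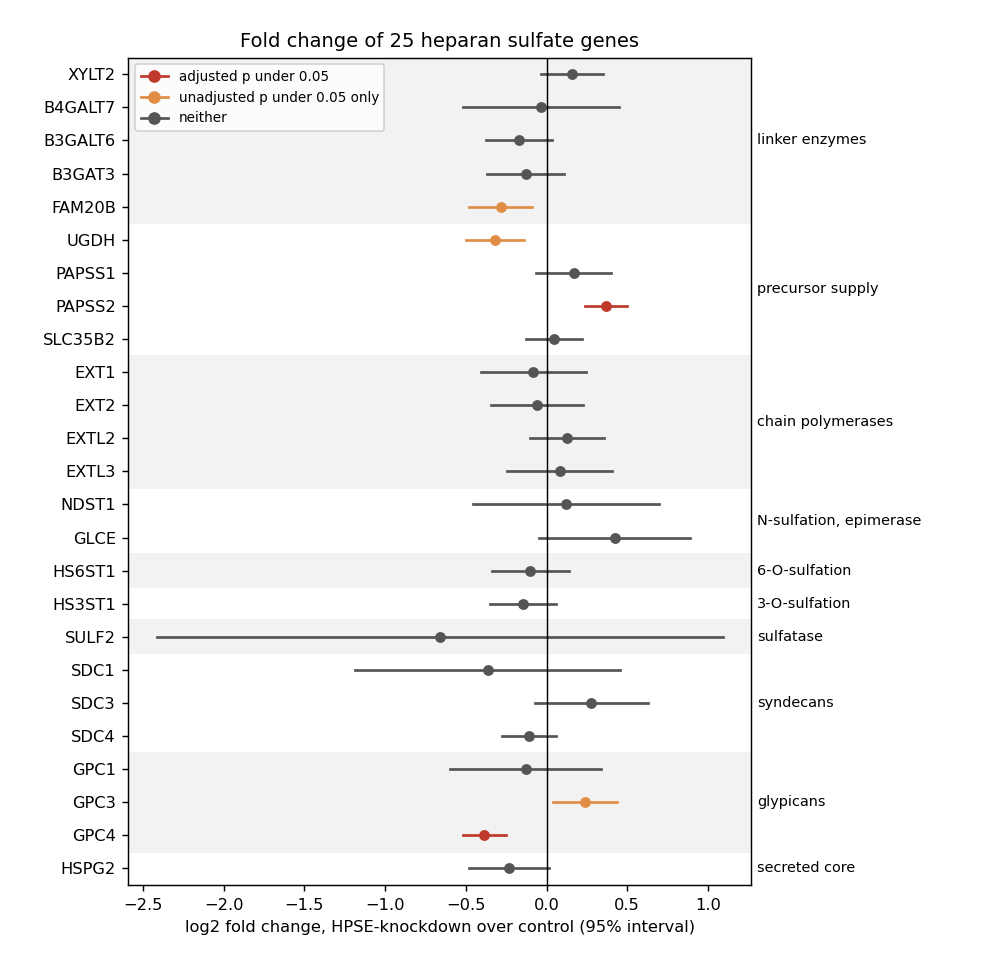
Log2 fold change of the 25 tested genes, HPSE-knockdown over control, on the log2(normalized count + 1) scale, with the 95% interval from limma. Genes are grouped by role, and the 2 genes with an adjusted p under 0.05 are red. All intervals except those of SDC1 and SULF2 lie within 1 of 0.

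The median log2 fold change of the 25 genes was −0.08, against −0.0048 over all features tested, with 10 estimates above 0 and 15 below it. The estimates of 24 genes lay within 0.5 of 0 on the log2 scale, and SULF2, with the fewest reads, was the exception. The 95% intervals of 23 genes excluded a 2-fold change in either direction, those of SDC1 and SULF2 did not, and the intervals of 16 genes lay within 0.5 of 0.

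The levels of different genes can be compared only per length, so normalized counts were divided by the kilobases of annotated exon. On this scale SLC35B2, which carries PAPS into the Golgi, stood highest, with a mean of 2440 per kilobase over the 6 libraries. Next came GPC4 at 1753, PAPSS2 at 1463, UGDH at 1217 and HSPG2, the gene of perlecan, at 1096. The range of SLC35B2 over the 6 libraries lay above that of GPC4, while from GPC4 down to XYLT2 (309) each gene overlapped with the next in this order. GPC4 stood above PAPSS2 in the control libraries, at 1986 and 1276, and below it in the knockdown libraries, at 1520 and 1649. SDC4 at 991 and SDC1 at 947 came next. The exostosins EXT2 and EXT1 had 551 and 405, and the deacetylase and sulfotransferase NDST1 had 378. GLCE at 121, GPC1 at 116, B4GALT7 at 98.6 and SDC3 at 64.8 stood lowest among the well-measured genes. SULF2, a sulfatase that removes sulfate from finished chains outside the cell, was far below at 2.22 per kilobase.

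Precursor supply held the clearest change of the enzymes. PAPSS2 (ENSG00000198682, chromosome 10, 87659613 to 87747705 in GRCh38, GENCODE 29) makes PAPS, which all sulfotransferases use. It had 6787, 6758 and 6657 normalized counts in the HPSE-knockdown libraries and 5152, 5187 and 5296 in the control libraries. All knockdown libraries were above all control libraries, and the libraries within a group lay close together, with means of 6734 ± 68.4 and 5212 ± 75.4 (SD, n = 3 each). It gave a log2 fold change of 0.37 (SE 0.06, limma adjusted p = 0.0397). When any 1 control or HPSE-knockdown library was left out, the estimate lay between 0.36 and 0.38 and the adjusted p from limma rose to between 0.0621 and 0.181, so none of these 6 fits kept the call. The call was also lost without an intensity trend and with all features tested.

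PAPSS1, the other synthase of PAPS, had 1599, 1561 and 1689 normalized counts in the knockdown libraries and 1268, 1521 and 1541 in the control libraries. The groups were apart by a narrow gap, and the log2 fold change was 0.17 (95% interval −0.06 to 0.40, adjusted p = 0.446 from limma). SLC35B2 had 5844, 6194 and 5533 normalized counts in the knockdown and 5365, 5644 and 6012 in the control libraries, which overlapped. Its log2 fold change was 0.05 (95% interval −0.13 to 0.22).

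UGDH (ENSG00000109814, chromosome 4, 39498755 to 39528311) makes UDP-glucuronic acid, one of the sugars of the chain. It had 4447, 4016 and 4698 normalized counts in the knockdown libraries and 5532, 5581 and 5270 in the control libraries. All knockdown values were lower, with means of 4387 ± 345 and 5461 ± 167 (SD, n = 3 each). Its log2 fold change was −0.32 (SE 0.08) with an unadjusted p of 0.0036 from limma, and the adjusted p of 0.119 did not pass.

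**Figure D2:**
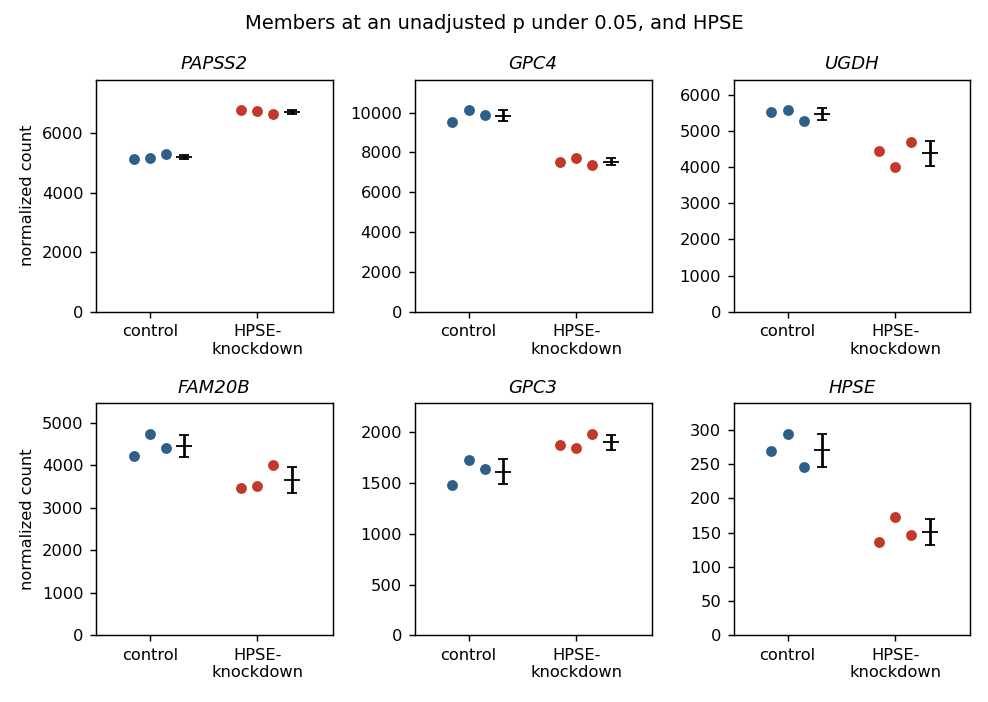
Normalized count of the 5 genes with an unadjusted p under 0.05, and of HPSE, in each library, with the mean and SD of 3 libraries beside the points. The groups do not overlap in any of the 6 panels.

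The linker enzymes place the sugars on which the chain grows. FAM20B (ENSG00000116199, chromosome 1, 179025804 to 179076562), the kinase that phosphorylates the linker xylose, had 3454, 3516 and 4007 normalized counts in the knockdown libraries and 4214, 4738 and 4407 in the control libraries. The knockdown values were lower without overlap. The log2 fold change was −0.28 (SE 0.08, limma unadjusted p = 0.0105 and adjusted p = 0.175), which did not pass the adjusted threshold.

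XYLT2, a xylosyltransferase that starts the linker, had 1873, 1717 and 1753 normalized counts in the knockdown libraries and 1669, 1626 and 1491 in the control libraries. The groups were apart, with a log2 fold change of 0.16 (95% interval −0.03 to 0.35). B3GALT6, a galactosyltransferase of the linker, had 936, 1088 and 1002 normalized counts in the knockdown libraries and 1138, 1138 and 1126 in the control libraries. It was lower in all knockdown libraries, by 0.17 on average on the log2 scale (95% interval of the fold change −0.38 to 0.03). B4GALT7 and B3GAT3, which add the other linker sugars, overlapped between the groups at log2 fold changes of −0.03 and −0.13. None of these 4 genes reached an unadjusted p of 0.05.

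XYLT1, the other xylosyltransferase, had a mean under 10 and was not tested. It rested on 18, 11 and 11 reads in the knockdown libraries and on 0, 0 and 5 in the control libraries. The knockdown libraries were higher, but a count of 0 allows up to 3 reads and these levels are far below the 1781 and 1596 mean normalized counts of XYLT2. With no filter on low values, limma gave XYLT1 an unadjusted p of 0.00589 and an adjusted p of 0.280.

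Glypicans are held on the outer face of the cell membrane by a lipid anchor and carry heparan sulfate close to the cell surface. GPC4 (ENSG00000076716) lies on the minus strand of chromosome X, from 133300103 to 133415490, and GPC3 (ENSG00000147257, 133535745 to 133985895) lies on the same strand, 120254 bases away. The bases before the start of GPC4, the gene of the set with the smallest p, are shown so that its promoter can be read beside its values. The window, chrX:133415500-133415739 in GRCh38.p14 from RefSeq, is written on the strand of the gene and covers positions −250 to −11 from the start, with matches to the GC box GGGCGG on either strand in capitals:
GPC4: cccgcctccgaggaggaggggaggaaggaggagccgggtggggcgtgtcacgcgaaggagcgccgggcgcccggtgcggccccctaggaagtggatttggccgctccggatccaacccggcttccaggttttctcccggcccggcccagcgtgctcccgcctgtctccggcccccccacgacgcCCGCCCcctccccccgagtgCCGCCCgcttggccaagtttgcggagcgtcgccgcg
The 250 bases before the start held 2 GC boxes, from −66 to −61 and from −46 to −41, and 76% of the bases were G or C. A GC box was found in 42.6% of the 35116 RefSeq windows of the same length, whose median GC content was 58%. The box CCAAT, the TATA box TATAAA, the AP-1 motif TGANTCA and the E-box CACGTG had no match in this window on either strand, and they were found in 32%, 10.7%, 6.57% and 6.34% of all windows. The table of windows had an entry for 33 of the 41 genes, and PAPSS2 and GPC3 were not among them.

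GPC4 had 7531, 7720 and 7364 normalized counts in the knockdown libraries and 9553, 10135 and 9861 in the control libraries. All knockdown libraries were lower, with means of 7538 ± 178 and 9850 ± 291 (SD, n = 3 each). It gave a log2 fold change of −0.39 (SE 0.06, limma adjusted p = 0.0389). With each control or HPSE-knockdown library left out in turn it stayed between −0.41 and −0.36, and the adjusted p from limma was 0.0647 to 0.163, so that no such fit kept the call. It was also lost without an intensity trend and with quantile normalization.

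GPC3 went the other way. It had 1871, 1843 and 1985 normalized counts in the knockdown libraries and 1479, 1724 and 1634 in the control libraries, without overlap. Its log2 fold change was 0.24 (SE 0.09, limma unadjusted p = 0.0254 and adjusted p = 0.241), which did not pass the adjusted threshold. The ratio of GPC4 to GPC3 normalized counts does not depend on how the libraries are scaled. It was 4.03, 4.19 and 3.71 in the knockdown libraries and 6.46, 5.88 and 6.04 in the control libraries, and the groups were apart (exact permutation p = 0.1, the smallest possible). This ratio was chosen after its values were seen. GPC4 and GPC3 each separated the groups, in opposite directions, so their ratio had to separate and its p adds no evidence. GPC1, the third glypican measured, had 587 to 861 normalized counts in the knockdown and 641 to 1014 in the control libraries, which overlapped, at a log2 fold change of −0.13 (95% interval −0.60 to 0.34).

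The syndecans carry heparan sulfate on transmembrane cores. SDC4 had 2546, 2478 and 2452 normalized counts in the knockdown libraries and 2535, 2748 and 2785 in the control libraries, at a log2 fold change of −0.11 (95% interval −0.28 to 0.06). SDC3 had 415, 609 and 489 against 426, 387 and 420, at 0.28 (95% interval −0.07 to 0.63). Neither gene separated the groups.

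SDC1, the main epithelial syndecan, differed between the knockdown libraries themselves. It had 4079, 1464 and 3878 normalized counts in the knockdown libraries and 3665, 3697 and 3654 in the control libraries. Knockdown library 2 was far below the other 5, which lay between 3654 and 4079. With it the log2 fold change was −0.37 (95% interval −1.19 to 0.46, adjusted p = 0.649 from limma), and without it 0.12 (adjusted p = 0.562 from limma), so the direction of the estimate rested on 1 library. Such gaps were rare, but not particular to SDC1 or to this library. Knockdown library 2 stood at least 2-fold below every other library in 18 of 8958 features with a mean over 500 normalized counts in the other 5 libraries. Over the 6 libraries, such a gap was found in 12 to 21 of 8951 to 8975 features each.

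**Figure D3:**
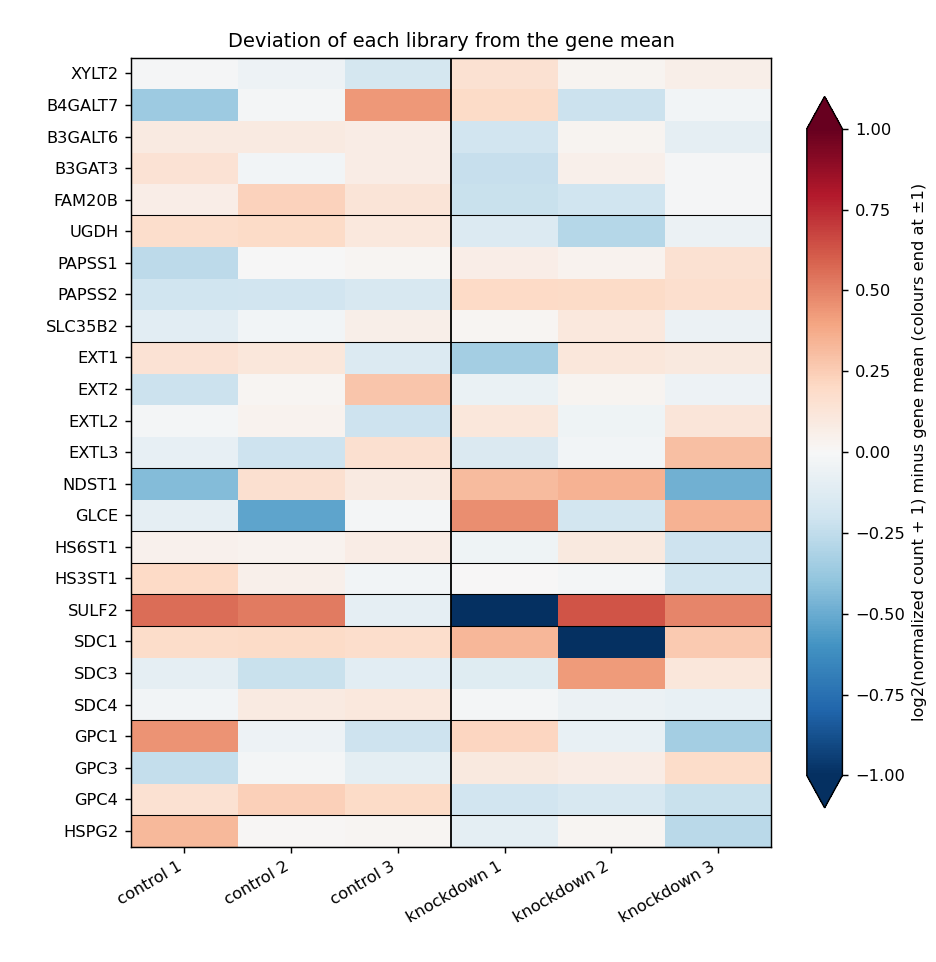
Deviation of each library from the gene mean, as log2(normalized count + 1), for the 25 tested genes, with colours that end at 1 above and below the mean. SDC1 is low in knockdown library 2 alone and SULF2 in knockdown library 1, while PAPSS2 and GPC4 divide by group.

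HSPG2, whose product perlecan is a large heparan sulfate proteoglycan of basement membranes, had 18416, 19944 and 16319 normalized counts in the knockdown libraries and 24598, 19821 and 19963 in the control libraries. Knockdown library 2 lay above control library 2, so the groups overlapped. The log2 fold change was −0.23 (95% interval −0.48 to 0.01, adjusted p = 0.333 from limma). It was −0.13 without control library 1, the highest, and ran from −0.30 to −0.13 over the 6 fits with 1 library left out.

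The exostosins, which polymerize the chain, showed no separation of the groups in any of the 4 genes tested. The groups separated in 23.4% of all features and in 28.4% of those with a mean of 300 or more, so this count says little. EXT1 and EXT2, the subunits of the polymerase, had log2 fold changes of −0.08 (95% interval −0.41 to 0.24) and −0.06 (95% interval −0.34 to 0.23). EXTL2 and EXTL3, which act at the start of chains, had 0.13 (95% interval −0.10 to 0.36) and 0.08 (95% interval −0.24 to 0.41). Of the 4 genes, 0 reached an unadjusted p of 0.05 in limma, in edgeR or in DESeq2, against 16.2%, 15.9% and 13.6% of all features.

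Of the enzymes that modify the chain, 5 were tested and in none did the groups separate. As separation was seen in 23.4% of all features and 28.4% of those with a mean of 300 or more, this count also says little. NDST1, which replaces acetyl groups by sulfate, had 4374, 4454 and 2513 normalized counts in the knockdown libraries and 2590, 3926 and 3736 in the control libraries. Knockdown library 3 and control library 1 were the low ones, so the groups overlapped. It gave a log2 fold change of 0.12 (95% interval −0.45 to 0.70). GLCE, the epimerase that turns glucuronic into iduronic acid, had 1085, 692 and 998 normalized counts in the knockdown libraries and 738, 544 and 774 in the control libraries. The groups overlapped, at a log2 fold change of 0.42 (95% interval −0.05 to 0.89, adjusted p = 0.349 from limma). HS6ST1, which sulfates glucosamine at the 6-O position, had 829, 915 and 737 normalized counts in the knockdown and 877, 876 and 897 in the control libraries, at −0.10 (95% interval −0.34 to 0.14). HS3ST1, the 3-O-sulfotransferase that makes the antithrombin-binding site, had 4070, 4005 and 3545 in the knockdown and 4662, 4207 and 3982 in the control libraries, at −0.14 (95% interval −0.35 to 0.06). SULF2 rested on 2, 22 and 19 reads in the knockdown libraries and 18, 19 and 11 in the control libraries, at −0.66 (95% interval −2.42 to 1.09). This interval did not exclude a 2-fold difference in either direction. Knockdown library 1, with 2 reads, lay far below all other libraries.

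The remaining 16 genes could not be tested. XYLT1, EXTL1, HS6ST3, HS3ST3B1 and SDC2 had a mean under 10 normalized counts. Apart from XYLT1, none had more than 5 reads in a library. SDC2, the syndecan usual in mesenchymal cells, had 2 reads in control library 1 and 0 in the other 5. NDST2, NDST3, HS2ST1, HS6ST2, HS3ST2, HS3ST3A1, SULF1, GPC2, GPC6, AGRN and SRGN had no row under their own identifier and were not analysed here. Of the 59192 features, 33265 carry only an assembler name and no gene, so a gene without a row is not shown to be without reads. For 8 of the 25 tested genes an annotated exon overlaps one of another gene on the opposite strand, namely UGDH, PAPSS2, NDST1, XYLT2, HSPG2, SULF2, EXTL2 and EXTL3, and the strand setting of the counts is not given in the sources used here. The antisense feature at PAPSS2 had a mean of 0.452 normalized counts and UGDH-AS1 one of 36.0, whereas NCOA3, which overlaps SULF2, had 2063.

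A second list gave 45 related genes, of which 24 were tested, 14 had no row and 7 had a mean under 10. BPNT2, the Golgi phosphatase that clears the by-product of PAPS after sulfation, was the gene of this list with an adjusted p under 0.05. At an unadjusted p under 0.05 there were 12 of the 24, 2 higher and 10 lower, or 50%, against 16.2% of all features tested and 21.1% of those with a mean of 300 or more, which 19 of the 24 had. With 1 library left out the count was 8 to 12, and the share of all features in those fits was 11.8% to 17.1%. SLC26A2, CHSY1, CHPF and DSEL were among those that no longer reached an unadjusted p of 0.05 without knockdown library 1. The genes also changed where the count stayed at 12. Without knockdown library 3, BGN and GFPT1 entered while CHPF and CHST11 left. Without control library 3, UXS1 and GFPT1 entered while SLC26A2 and DSEL left. The median log2 fold change of the 24 was −0.15, against −0.0048 over all features.

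BPNT2 had 4157, 4076 and 4157 normalized counts in the knockdown libraries and 5839, 5713 and 5130 in the control libraries. All knockdown libraries were lower, at a log2 fold change of −0.43 (SE 0.07, limma adjusted p = 0.0497). Without control library 3 the adjusted p from limma was 0.0463, and without each of the other 5 libraries it was between 0.112 and 0.190, so the call was lost there, as it was with TMM or quantile normalization, without an intensity trend and in edgeR. PAPSS2, which makes PAPS, and BPNT2 thus moved in opposite directions. The ratio of PAPSS2 to BPNT2 normalized counts was 1.63, 1.66 and 1.60 in the knockdown libraries and 0.882, 0.908 and 1.03 in the control libraries (exact permutation p = 0.1, the smallest possible). As each gene separated the groups, in opposite directions, this ratio had to separate and its p adds no evidence. The ratio of PAPSS2 to PAPSS1 was 4.25, 4.33 and 3.94 in the knockdown libraries and 4.06, 3.41 and 3.44 in the control libraries. Its groups overlapped (exact permutation p = 0.2). The ratio of HPSE to HSPG2 was also computed, and its groups were apart (exact permutation p = 0.1).

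PXYLP1 removes the xylose phosphate that FAM20B adds. It had 283, 299 and 292 normalized counts in the knockdown libraries and 172, 198 and 204 in the control libraries, and the groups were apart. Its log2 fold change was 0.61 (SE 0.12, limma unadjusted p = 0.00113 and adjusted p = 0.0814). The ratio of FAM20B to PXYLP1 normalized counts was 12.2, 11.8 and 13.7 in the knockdown libraries and 24.6, 23.9 and 21.6 in the control libraries, without overlap (exact permutation p = 0.1, the smallest possible). FAM20B and PXYLP1 also each separated the groups, in opposite directions, so this ratio had to separate too. The ratios were all chosen after their values were seen. In the list of precursor supply, SLC35D1 and SLC26A2, transporters of nucleotide sugars and of sulfate, were lower at −0.44 and −0.23, each with an unadjusted p under 0.05 and an adjusted p above it (0.150 and 0.249 from limma).

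Chondroitin sulfate grows on the same linker and draws on the same precursors. Of 16 genes of this branch, 8 were tested, and 6 had an unadjusted p under 0.05, which is 75% against 16.2% of all features and 21.1% of those with a mean of 300 or more, which 6 of the 8 had. The count rested in part on single libraries. It was 3 without knockdown library 1 (CSGALNACT2, CHPF2 and CHST11), 3 without control library 2 (CSGALNACT2, CHPF and CHPF2), and 4 or 5 without each of the others. None of the 6 passed the adjusted threshold in limma or edgeR, and CHPF2 did in DESeq2. The polymerizing enzymes CHSY1, CHPF and CHPF2 had log2 fold changes of −0.19, −0.67 and −0.41, and CSGALNACT2, which starts the chain, had −0.31. CHPF2 had 1048, 1019 and 934 normalized counts in the knockdown libraries and 1354, 1219 and 1425 in the control libraries, apart from each other (adjusted p = 0.111 from limma). CHPF had 733, 1253 and 974 against 2301, 1277 and 1217, and control library 3 lay below knockdown library 2, so the groups overlapped. Without control library 1, the highest, the log2 fold change of CHPF was −0.37 with a limma unadjusted p of 0.134, and over the 6 fits with 1 library left out it ran from −0.86 to −0.37. DSEL, an epimerase of the branch, had a log2 fold change of −0.46, and −0.30 without knockdown library 1. CHST11, a sulfotransferase of the branch, was the one of the 6 with a positive value, 0.68, at 61.2, 61.4 and 83.8 normalized counts in the knockdown and 41.8, 36.7 and 48.8 in the control libraries (adjusted p = 0.206 from limma).

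**Figure D4:**
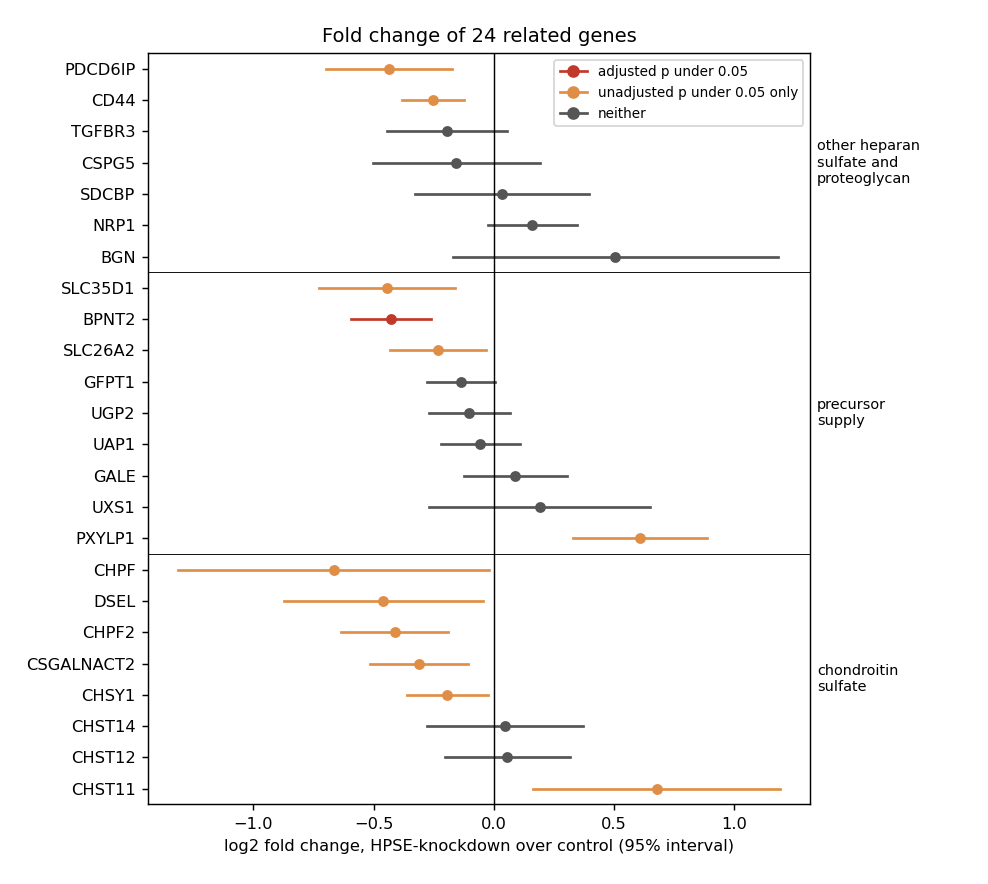
Log2 fold change, HPSE-knockdown over control, with the 95% interval from limma, of the 24 tested genes of the related lists. BPNT2 is the gene with an adjusted p under 0.05, and 10 of the 12 genes with an unadjusted p under 0.05 lie below 0.

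Among other proteoglycans and syndecan partners, 7 genes were tested and 2 had an unadjusted p under 0.05. That is 28.6%, against 16.2% of all features and 21.1% of those with a mean of 300 or more, which 5 of the 7 had. With so few genes the count says little about this list. CD44, a part-time proteoglycan and the most abundant gene of these lists per length, at 2511 per kilobase, had 22848, 22125 and 23782 normalized counts in the knockdown libraries and 26127, 27756 and 28070 in the control libraries. The groups were apart, at a log2 fold change of −0.25 (SE 0.05, limma adjusted p = 0.0997). PDCD6IP, known as ALIX, which works with syntenin in the export of syndecans on exosomes, had 4303, 3309 and 3338 normalized counts in the knockdown and 4585, 5048 and 5064 in the control libraries. The knockdown values were lower, at −0.43 (SE 0.11, limma adjusted p = 0.136). SDCBP, the gene of syntenin, had overlapping groups at 0.03 (95% interval −0.33 to 0.39).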

How the data were processed

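RNA from 3 control and 3 HPSE-knockdown cultures of SW480 was sequenced on an Illumina HiSeq instrument. The authors deposited 1 table of normalized counts, a signal in which the reads of a feature are scaled by a factor of its library. The submitters' processing notes name bcl2fastq, HISAT2, DESeq2 and the build GRCh38, and the paper names Cuffdiff. The counting tool and strand setting are not given in the sources used here. Every value was a whole multiple of 1 step within 0.01 reads (100% of values), so whole reads were recovered.

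Features with a mean of at least 10 were tested as log2(normalized count + 1) by limma 3.58.1 (R 4.3.3), using its trend over intensity, a two-sided test and Benjamini-Hochberg adjustment over all 21703 of them. A gene was called at an adjusted p under 0.05, with no minimum change. Fold changes are on this log2 scale. As alternatives, the recovered reads were tested by DESeq2 1.42.0 and the quasi-likelihood test of edgeR 4.0.16, and the main test was repeated with other pseudocounts, filters, scalings, the replicate number as a block and each library left out. The steps were tested on simulated data with changes larger than those called here, so that test does not show how well changes of this size are found. Replicates differed by more than sampling noise. Symbols and exon lengths are from GENCODE 29, and exon length over all transcripts can understate a level per kilobase.

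All genes of the set are named, with all 6 values for those at an unadjusted p under 0.05, with separate groups or among the 5 highest per kilobase. The other genes given with all values, such as SDC1 and NDST1, the ratios and the count of libraries that stand apart were chosen after values were seen. The members and lists were chosen with earlier results of these data known.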

Additional observations from a re-analysis of the deposited data

How the results depend on the processing

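The count of heparan sulfate genes with an adjusted p under 0.05 was 2 in the test reported. It was also 2 with a pseudocount of 5, a mean of at least 50, median-of-ratios or TMM scaling, Ensembl genes only, edgeR and DESeq2. It was 1 with all features tested (GPC4) and with quantile normalization (PAPSS2), and 0 without an intensity trend, with the replicate number as a block, and in each of the 6 fits that left out 1 library (lowest 0, highest 0). At an unadjusted p under 0.05 the count was 5 of 25, against 16.2% of all features. With all features tested it was 8 of 30, XYLT1 among them, against 8.2% of all features in that fit. With 1 library left out it ranged from 4 to 8 of 25, against 11.8% to 17.1% of all features. The count thus depended on the filter and on single libraries. Only 21703 of the 59192 features had a mean of at least 10, so the 8.2% rests mostly on features with few reads. The share among features with a mean of 300 or more was computed for the test reported only, at 21.1%. How close the set lay to features of its own level is therefore not known in the other fits. The median log2 fold change ranged from −0.087 to −0.037 in those 6 fits. The log2 fold change of HPSE had an adjusted p under 0.05 with all features tested, a mean of at least 50 and Ensembl genes only, at −0.83 in each, and with DESeq2, also at −0.83. With 1 library left out, the estimate for SDC1 ranged from −0.62 to 0.12, and it reversed without HPSE-knockdown replicate 2. That for NDST1 ranged from −0.066 to 0.39 and reversed without HPSE-knockdown replicate 1 (−0.0069), HPSE-knockdown replicate 2 (−0.020) or control replicate 1. BPNT2 lost its call in 5 of the 6 such fits. PXYLP1, CHPF2 and PDCD6IP passed the adjusted threshold in DESeq2 and in no other setting. PAPSS2, GPC4, UGDH, FAM20B and GPC3 kept their direction in all 17 alternatives. The counts over all features were 174 in the test reported, 756 with DESeq2, 136 with edgeR, 119 with quantile normalization, 11 without the trend and 29 to 93 with 1 library left out.

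The replicate numbers are not stated to pair the cultures. The test reported was planned without a block. Deviations of same-numbered libraries from their group means correlated at 0.0025, −0.020 and 0.0074. Under the block 12 of all features passed the adjusted threshold and 0 of the 25 genes did. The adjusted p from limma was then 0.190 for PAPSS2 and 0.185 for GPC4 (BPNT2 0.185). With 3 libraries per group the interval of SULF2 did not exclude a 2-fold change in either direction.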
